A study of Mus musculus with 12 samples.

Results

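Liver X receptors (LXRs) and the genes of cholesterol efflux were followed in mouse fetal liver alveolar-like macrophages (FLAMs), a culture model of alveolar macrophages grown from fetal liver. The set holds 8 genes, taken by symbol from the 40847 rows of the deposited count table: the receptors Nr1h3 and Nr1h2, and Ch25h, Abca1, Abcg1, Apoe, Mylip and Lpcat3. All 8 passed the filter on low counts, as did 14749 genes of the whole table. Polyadenylated RNA was sequenced in 12 libraries, 3 in each of 4 groups, and every group had GM-CSF at 30 ng/ml in its medium. The untreated group had nothing further. The TGFβ group was grown with recombinant human TGFβ1 at 20 ng/ml. The Pam3 group received the TLR2 ligand Pam3CSK4 at 25 ng/ml for 18 h, and the Pam3+TGFβ group received both.

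LXRα (Nr1h3) and LXRβ (Nr1h2) are nuclear receptors that bind oxysterols, oxidised forms of cholesterol, and act on DNA as partners of the retinoid X receptors. In macrophages they switch on genes that move cholesterol out of the cell and limit its uptake, and they also restrain inflammatory genes. Alveolar macrophages clear the lipids of lung surfactant, so cholesterol export is part of their normal work, and the same transporters also respond to other signals, among them inflammatory ones.

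Library totals ran from 34036650 to 44374115 counts. Replicates within a group differed by more than sampling noise, the smallest chi-square of a pair divided by its degrees of freedom being 9.99 and the largest 220. Untreated replicate 3, TGFβ replicate 2 and Pam3 replicate 1 stood apart from the other libraries of their groups: pairs that held one of them gave 133 to 220, and pairs without them gave 9.99 to 28.0. These libraries did not deviate alike. Deviations from group means correlated at 0.46 between TGFβ replicate 2 and Pam3 replicate 1. Those of untreated replicate 3 correlated at -0.51 and -0.36 with them. A fit without all 3 can therefore leave the groups unlike, which was not tested. The labels do not say that replicates were separate cultures, so p-values measure the spread between these samples, which may be technical. Levels below are CPM, the depth-scaled count rate, after TMM scaling. Log2 fold changes carry their standard error (SE), and a gene is called at an adjusted p under 0.05 in edgeR's quasi-likelihood test with Benjamini-Hochberg adjustment over all 14749 tested genes.

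The macrophage identity of the cultures was checked with marker lists. All 6 macrophage markers were tested. Their summed level, mostly Lyz2 (29824 CPM on average in untreated and 15248 CPM in TGFβ libraries), was 31473 to 35700 CPM in untreated, 16354 to 17280 CPM in TGFβ, 34403 to 35472 CPM in Pam3 and 25212 to 25911 CPM in Pam3+TGFβ libraries. Means of 5 of the 6 were lower in TGFβ than in untreated libraries, from Csf1r (983 and 820.3 CPM) to Itgam (1088 and 38.8 CPM), while Fcgr1 averaged 81.1 and 91.3 CPM. The 8 alveolar macrophage markers summed to 6393 to 7180 CPM in untreated libraries and to between 7777 and 8332 CPM in the other groups, but single markers of the list went in opposite directions with TGFβ. Siglecf, for instance, averaged 32.1 CPM in untreated and 300.4 CPM in TGFβ libraries, and Fabp4 31.1 and 0.132 CPM. The 5 neutrophil markers, nearly all of it S100a8, summed to 12.6 to 15.4 CPM in untreated, 2.62 to 3.78 CPM in TGFβ, 15.6 to 16.3 CPM in Pam3 and 3.75 to 5.01 CPM in Pam3+TGFβ libraries, with Mpo at 0 in every library. The 4 epithelial markers, nearly all of it Cdh1, summed to 159 to 182, 391 to 403, 142 to 151 and 256 to 265 CPM in the same order, with Krt8 and Krt18 at 0. Dendritic cell markers summed to 16.8 to 25.0 CPM over all groups. Lists for hepatocytes (at most 10.2 CPM), fibroblasts or endothelium (at most 4.13 CPM), mast cells (at most 1.11 CPM), erythroid cells (at most 0.570 CPM), B cells (at most 0.419 CPM) and T and NK cells (at most 0.111 CPM) were low throughout. The part of these shifts in the changes described here was not tested. In bulk RNA, fewer cells of a type and less RNA per cell cannot be told apart.

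The genes divided into several patterns. TGFβ raised Mylip, Apoe, Lpcat3 and Abca1 with or without Pam3. Abca1 was raised by each agent and was highest with both, at 413 CPM against 107 CPM in untreated cells. Ch25h, the enzyme that makes the oxysterol 25-hydroxycholesterol, fell 19.3-fold with TGFβ alone, yet with Pam3 present it was no lower in libraries with TGFβ (40.2 to 47.0 CPM) than in those without (34.9 to 39.5 CPM). The receptors moved little: Nr1h3 was called higher in Pam3+TGFβ libraries than in TGFβ or Pam3 libraries, by at most 0.37 on the log2 scale, and Nr1h2 was not called in any contrast.

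**Figure D1:**
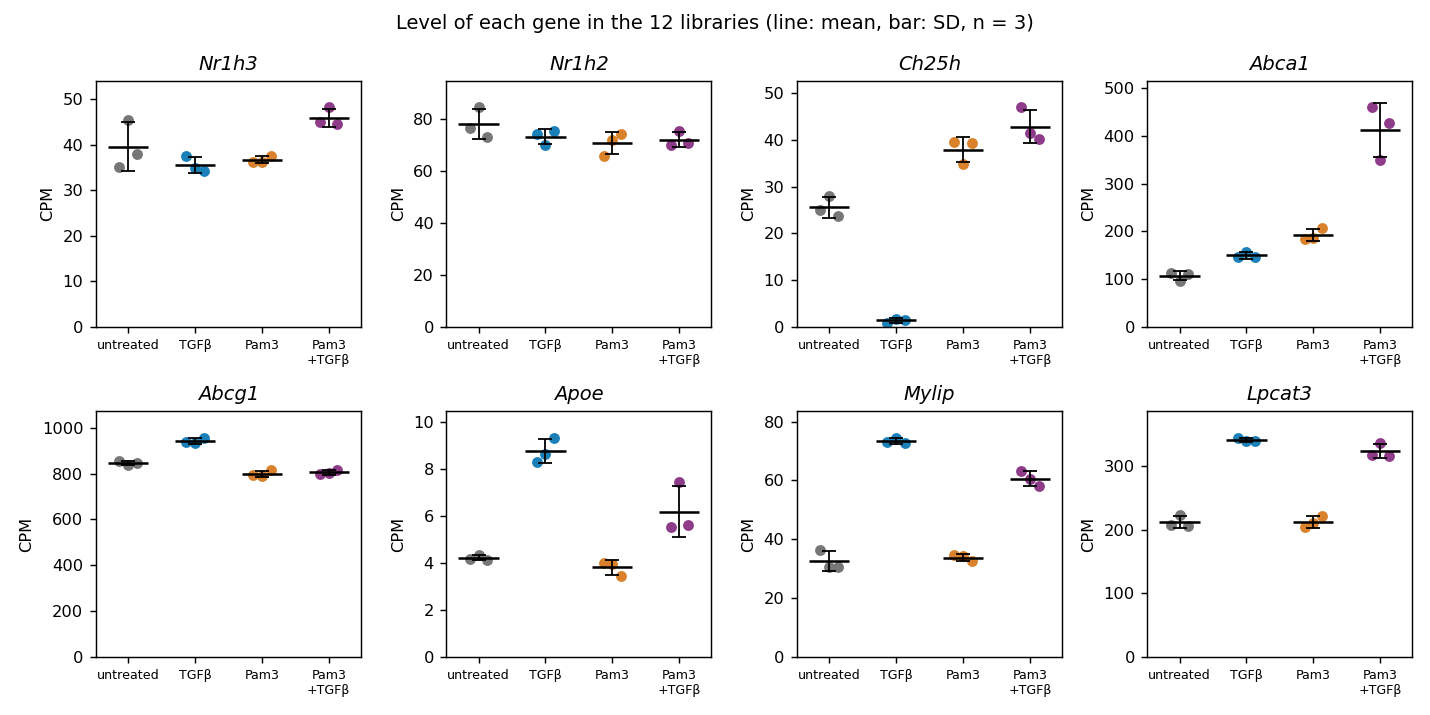
CPM (y axes, each from 0 and on its own scale) of the 8 genes in the 12 libraries by group (x axes); points are libraries, the line is the mean and the bar the SD of 3 libraries. Ch25h sits between 0.803 and 1.68 CPM in TGFβ libraries and at 23.6 CPM or more in all others, and Abca1 at 350 CPM or more in Pam3+TGFβ libraries and at 207 CPM or less in all others.

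The receptors come first. Nr1h3 (ENSMUSG00000002108, chr2:91014394-91033417, minus strand of GRCm39) encodes LXRα, the form that is enriched in macrophages, liver and fat. Its level was 35.0, 45.5 and 38.0 CPM in untreated libraries, 37.5, 34.8 and 34.2 CPM in TGFβ, 36.3, 36.2 and 37.6 CPM in Pam3, and 44.9, 48.2 and 44.5 CPM in Pam3+TGFβ. The Pam3+TGFβ libraries lay above every TGFβ and Pam3 library, but overlapped the untreated range because of untreated replicate 2. With Pam3 present, TGFβ raised Nr1h3 (log2 fold change 0.32, SE 0.077, adjusted p = 0.00112). Without Pam3 the value was -0.16 (SE 0.077, adjusted p = 0.0960), and leaving out 1 library at a time moved it between -0.21 (a call without untreated replicate 1, adjusted p = 0.0280) and -0.04. The Pam3 response was 0.37 (SE 0.077, adjusted p = 0.000343) in the presence of TGFβ and -0.11 (SE 0.077, adjusted p = 0.387) in its absence. The difference between those responses, the interaction, was 0.48 (SE 0.109, adjusted p = 0.00250).

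Nr1h2 (ENSMUSG00000060601, chr7:44199036-44203406, minus strand) encodes LXRβ, the form found in most tissues. It measured 76.9, 84.7 and 73.4 CPM in untreated, 74.3, 70.0 and 75.7 CPM in TGFβ, 66.0, 71.9 and 74.5 CPM in Pam3, and 70.0, 75.5 and 71.1 CPM in Pam3+TGFβ libraries. The ranges of neighbouring groups overlapped throughout, and the highest and lowest group means differed 1.11-fold. The 95% interval of the TGFβ effect was -0.22 to 0.03 without Pam3 and -0.10 to 0.16 with it, and that of the Pam3 response was -0.27 to -0.02 without TGFβ (adjusted p = 0.114) and -0.15 to 0.11 with it. Leaving out 1 library at a time moved the Pam3 response without TGFβ between -0.19 (a call without untreated replicate 3, adjusted p = 0.0425) and -0.08. Per kilobase of exon, Nr1h3 stood at 0.345 ± 0.029 of Nr1h2 (SD, n = 3) in untreated libraries, 0.332 ± 0.019 in TGFβ, 0.355 ± 0.018 in Pam3 and 0.435 ± 0.0055 in Pam3+TGFβ. The lowest Pam3+TGFβ ratio, 0.429, was above the highest ratio of any other group, 0.376. The size of the ratio depends on the length used, here the union of exons. On that length untreated means were 7.81 CPM per kb for Nr1h3 and 22.6 for Nr1h2. Per kilobase of the canonical transcript they were 18.6 and 37.3.

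Ch25h (ENSMUSG00000050370, chr19:34451178-34452564, minus strand) encodes cholesterol 25-hydroxylase. Its product, 25-hydroxycholesterol, is an LXR ligand that also blocks the processing of SREBP proteins, and the gene is known as a target of interferon and TLR signals in macrophages. It is a gene of 1 exon. Untreated libraries held 24.9, 28.1 and 23.6 CPM of Ch25h, behind which stood 828 to 1168 counts. TGFβ libraries held 0.803, 1.68 and 1.44 CPM, from 29, 68 and 55 counts. Pam3 libraries held 39.5, 34.9 and 39.5 CPM, and Pam3+TGFβ libraries 47.0, 41.5 and 40.2 CPM. No neighbouring groups overlapped, and TGFβ alone stood far below the rest.

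TGFβ alone lowered Ch25h, with a log2 value of -4.27 (SE 0.15, adjusted p = 6.36e-16), the 253rd largest change in size among the 14749 tested genes. In the presence of Pam3, the TGFβ effect was 0.18 (95% interval -0.05 to 0.40, adjusted p = 0.199), and in a fit of those 6 libraries alone it was called higher (adjusted p = 0.0431). Pam3 raised Ch25h by 0.57 (SE 0.109, adjusted p = 0.000651) without TGFβ, a call not made by limma-trend on the authors' normalized values (0.58, adjusted p = 0.0961). With TGFβ the Pam3 response was 5.02 (SE 0.149, adjusted p = 6.89e-17), or 32.4-fold. The interaction of 4.45 (SE 0.187, adjusted p = 4.50e-13) ranked 55th in size. The 2 Pam3 responses start from very unequal levels, since TGFβ alone left 1.31 CPM on average.

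The 250 bases before the start of Ch25h (GRCm39 chr19:34452565-34452814, minus strand, 5′ to 3′) are shown because Ch25h carried the largest change of the set. Capitals mark its match to the NF-κB core searched, GGGA, any 4 bases, CC, which ends 22 bases before the start:
Ch25h window: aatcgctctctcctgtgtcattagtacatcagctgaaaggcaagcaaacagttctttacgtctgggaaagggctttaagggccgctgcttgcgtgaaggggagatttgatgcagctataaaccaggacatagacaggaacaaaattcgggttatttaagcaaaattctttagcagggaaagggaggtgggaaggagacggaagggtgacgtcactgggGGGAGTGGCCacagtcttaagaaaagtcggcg
This core was found on either strand in 18.2% of the same windows of 21747 protein-coding genes, and in 4 of the 8 genes here (Nr1h2, Abcg1, Apoe and Ch25h). An interferon-response core, GAAA, any 2 bases, GAAA, was found in 3.32% of all windows and in 0 of the 8. Both motifs were chosen after the values were seen. A match is a description of letters, not a binding site.

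Abca1 (ENSMUSG00000015243, chr4:53030787-53159900, minus strand, 50 exons) encodes the transporter that hands cholesterol and phospholipid to lipid-poor apolipoprotein A-I, and it is the classic LXR target of macrophages. Its level was 113, 96.3 and 111 CPM in untreated, 145, 157 and 146 CPM in TGFβ, 183, 185 and 207 CPM in Pam3, and 459.8, 350.1 and 428 CPM in Pam3+TGFβ libraries. The groups stood in that order and no neighbours overlapped, with a 3.87-fold span from lowest to highest mean. TGFβ raised Abca1 by 0.48 (SE 0.098, adjusted p = 0.00144) without Pam3 and by 1.10 (SE 0.097, adjusted p = 1.87e-06) with it. Pam3 raised it by 0.85 (SE 0.098, adjusted p = 8.27e-05) without TGFβ and by 1.47 (SE 0.098, adjusted p = 2.09e-07) with it. The interaction was 0.62 (SE 0.137, adjusted p = 0.00936). That call was lost without TGFβ replicate 3 (0.58, adjusted p = 0.0563), and without the 3 libraries that stood apart (0.58, adjusted p = 0.0842).

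The Abca1 promoter is shown because Abca1 rose in all 4 pairwise contrasts and is known to answer to LXR. LXR dimers favour the direct repeat searched here, AGGTCA, any 4 bases, AGGTCA, with at most 3 mismatches in its 12 fixed letters on either strand. The window (GRCm39 chr4:53159901-53160150, minus strand, 5′ to 3′) held 1 match, in capitals, that ends 46 bases before the start:
Abca1 window: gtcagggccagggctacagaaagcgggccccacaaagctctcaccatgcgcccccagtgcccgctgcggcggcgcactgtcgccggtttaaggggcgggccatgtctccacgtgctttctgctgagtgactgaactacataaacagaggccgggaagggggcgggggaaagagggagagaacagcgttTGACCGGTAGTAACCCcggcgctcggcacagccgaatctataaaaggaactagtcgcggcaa
On the opposite strand the match reads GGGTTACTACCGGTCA (chr4:53159947-53159962), with 3 mismatches. Lpcat3 was the only other gene of the 8 with a match, also with 3 mismatches and on the opposite strand, ending 221 bases before its start:
Lpcat3 match: AGGTTACTCTCGGTCG
Such matches occurred in 18% of the 21747 windows, those with at most 2 mismatches in 2.43% and with at most 1 in 0.198%, so 2 of 8 genes is near the share of all windows. The exact letters AGGTCA occurred in 13.1% of windows and in 0 of the 8. The window leaves out distal elements, which carry LXR binding at many target genes. Windows end at the canonical start, which can lie inside the annotated gene. Those of Nr1h3 and Apoe fall wholly within their annotated genes. For Lpcat3, 142 of the 250 window bases lie in exons of Lpcat3 or Gm67018.

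Abcg1 (ENSMUSG00000024030, chr17:31276649-31336969, plus strand) encodes the transporter that passes cholesterol to mature HDL particles and is prominent in alveolar macrophages. It was the most abundant of the 8 per kilobase of exon, at 110 CPM per kb in untreated cells against 8.69 for Abca1. Its level was 856, 838 and 844 CPM in untreated, 937, 935 and 957 CPM in TGFβ, 795, 789 and 814 CPM in Pam3, and 796, 801 and 817 CPM in Pam3+TGFβ libraries. TGFβ libraries were above all others, while Pam3 and Pam3+TGFβ libraries overlapped. TGFβ raised Abcg1 by 0.16 (SE 0.047, adjusted p = 0.00681) without Pam3, and with Pam3 the value was 0.01 (95% interval -0.09 to 0.11). Pam3 lowered it in the presence of TGFβ (-0.23, SE 0.047, adjusted p = 0.000301), while in its absence the value was -0.08 (adjusted p = 0.261). The interaction of -0.15 was not called (adjusted p = 0.151), but was by DESeq2 (adjusted p = 0.0146).

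The ratio of Abca1 to Abcg1 within a library, per kilobase of exon, was 0.0792 ± 0.0061 (SD, n = 3) in untreated, 0.0994 ± 0.0053 in TGFβ, 0.151 ± 0.0080 in Pam3 and 0.322 ± 0.044 in Pam3+TGFβ libraries. The groups did not overlap. Bowtie2 does not split reads across introns, so a gene of many exons such as Abca1 can lose more reads than Ch25h with its 1 exon, which bears on levels between genes more than on changes of 1 gene between groups.

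**Figure D2:**
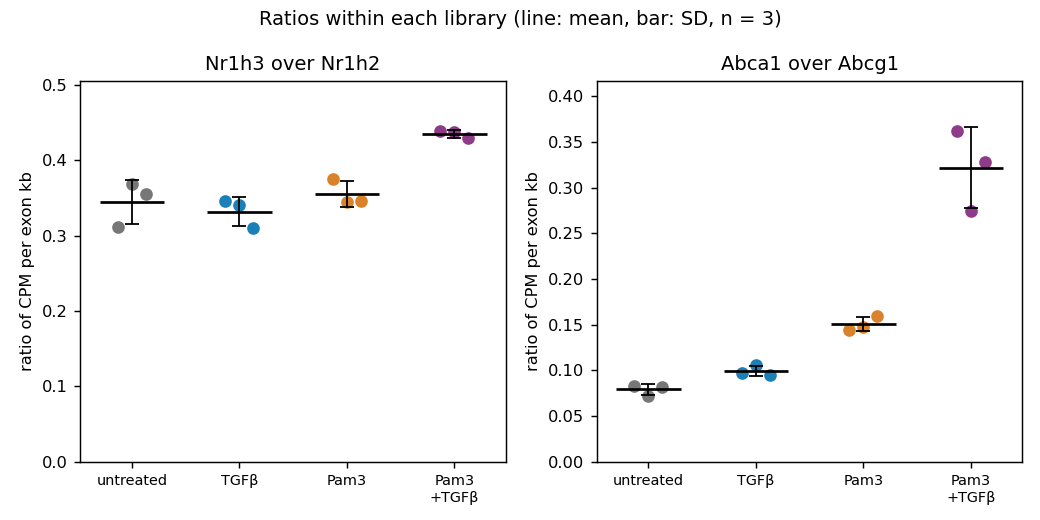
Ratio of CPM per exon kilobase within each library (y axes from 0) for Nr1h3 over Nr1h2 and Abca1 over Abcg1, by group; points are libraries, lines means and bars the SD of 3 libraries. Both ratios are highest in the Pam3+TGFβ libraries, at 0.429 or more and at 0.275 or more.

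Apoe (ENSMUSG00000002985, chr7:19430034-19434947, minus strand) encodes apolipoprotein E, a secreted acceptor of effluxed cholesterol and a known LXR target in macrophages. It was the least abundant of the set at 1.04 CPM per kb in untreated cells, and its counts were 109 to 357 per library. Its level was 4.18, 4.35 and 4.13 CPM in untreated, 8.33, 8.64 and 9.35 CPM in TGFβ, 4.01, 3.96 and 3.46 CPM in Pam3, and 5.53, 7.44 and 5.60 CPM in Pam3+TGFβ libraries. Every library with TGFβ was above every library without it. TGFβ raised Apoe by 1.05 (SE 0.137, adjusted p = 4.25e-07) without Pam3 and by 0.70 (SE 0.141, adjusted p = 0.000218) with Pam3. Pam3 lowered it in the presence of TGFβ (-0.50, SE 0.133, adjusted p = 0.00355), and the value without TGFβ was -0.15 (adjusted p = 0.563). The interaction was -0.36 (95% interval -0.76 to 0.05, adjusted p = 0.263).

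Mylip (ENSMUSG00000038175, chr13:45543215-45565501, plus strand) encodes IDOL, a ubiquitin ligase through which LXR lowers the LDL receptor protein. It measured 36.4, 30.7 and 30.5 CPM in untreated, 73.1, 74.6 and 72.7 CPM in TGFβ, 34.7, 34.1 and 32.4 CPM in Pam3, and 63.2, 60.4 and 58.2 CPM in Pam3+TGFβ libraries. Libraries with TGFβ were again all above those without, and the TGFβ libraries above the Pam3+TGFβ ones. TGFβ raised Mylip by 1.18 (SE 0.067, adjusted p = 9.81e-14) without Pam3 and by 0.84 (SE 0.067, adjusted p = 7.86e-11) with it. Pam3 lowered it in the presence of TGFβ (-0.28, SE 0.065, adjusted p = 0.00128), and the value without TGFβ was 0.05 (adjusted p = 0.667). The interaction of -0.33 (SE 0.094, adjusted p = 0.0152) was not called without untreated replicate 3 (-0.28, adjusted p = 0.0549), nor without the 3 libraries that stood apart (-0.27, adjusted p = 0.137).

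Lpcat3 (ENSMUSG00000004270, chr6:124639765-124684440, plus strand) encodes a lysophospholipid acyltransferase that puts polyunsaturated fatty acids into membrane phospholipids under LXR control. It measured 208, 223 and 206 CPM in untreated, 345, 340.0 and 340.3 CPM in TGFβ, 204, 210.3 and 222 CPM in Pam3, and 318, 337 and 316 CPM in Pam3+TGFβ libraries. All libraries with TGFβ lay above all without. TGFβ raised Lpcat3 by 0.69 (SE 0.043, adjusted p = 7.34e-13) without Pam3 and by 0.61 (SE 0.043, adjusted p = 9.24e-12) with it. The Pam3 response was 0.00 without TGFβ (95% interval -0.09 to 0.09) and -0.08 with it (adjusted p = 0.164), the latter called under upper-quartile scaling (-0.14, adjusted p = 0.0131).

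Exons of 4 of the genes overlap another gene in the annotation, and the strand setting of the counting is not given in the sources used here. For Lpcat3 4423 of 7956 exon bases are shared, among others with Emg1 on the opposite strand, for Ch25h 698 of 1387 (Gm26902, opposite strand), for Apoe 521 of 4048 (Gm71725, opposite strand), and for Nr1h3 290 of 5060 (Acp2 on the opposite strand and Gm13783 on the same). Emg1 had 1471 to 2590 counts, fewer than any Lpcat3 library, and rose with TGFβ by 0.24 and 0.36. Acp2 had 3630 to 7698 counts, more than Nr1h3, with an interaction of 0.34 (0.48 for Nr1h3). Its Pam3 response without TGFβ was 0.41, where that of Nr1h3 was -0.11, and its TGFβ effect with Pam3 was -0.09, where that of Nr1h3 was 0.32. In the other contrasts both had the same sign: TGFβ without Pam3 gave -0.43 for Acp2 and -0.16 for Nr1h3, and Pam3 with TGFβ 0.75 and 0.37. Gm26902, Gm71725 and Gm13783 are not among the symbols of the deposited counts, so their levels could not be read. How far neighbours enter the counts of Lpcat3, Ch25h, Apoe and Nr1h3 was not tested.

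Over the 8 genes, TGFβ without Pam3 raised 5 and lowered 1 (Ch25h), where 22.9% of all tested genes were called higher and 28.1% lower. The median log2 fold change was 0.32 for the 8 and -0.01 for all tested genes. With Pam3 present, TGFβ raised 5 and lowered 0, against 21.5% called higher and 23.8% lower over all genes, with medians of 0.47 and 0.00. All 8 had log2 fold changes above 0, from 0.01 to 1.10, so 0 were lower at an unadjusted p under 0.05, and DESeq2 called 0 lower. Mylip, Apoe, Lpcat3 and Abca1 were among the raised genes in both contrasts, joined by Abcg1 without Pam3 and by Nr1h3 with it.

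Pam3 without TGFβ raised Abca1 and Ch25h and lowered 0 of the 8, against 9.62% called higher and 8.66% lower. The other 6 lay between -0.15 and 0.05. DESeq2 called 0 of them lower, and Nr1h2 alone was lower at an unadjusted p under 0.05 in edgeR. In the presence of TGFβ, Pam3 raised Ch25h, Abca1 and Nr1h3 and lowered Apoe, Mylip and Abcg1, against 20.4% called higher and 18.1% lower. The interaction was called higher for Ch25h, Abca1 and Nr1h3 and lower for Mylip, against 10.3% called higher and 5.67% lower over all genes. Without the 3 libraries that stood apart it was called for 2 of the 8, Ch25h and Nr1h3. Over all genes that fit called 1196 interactions higher and 693 lower of 14983, against 1516 and 836 of 14749 with all libraries. The contrasts share libraries, so their values are not independent of each other.

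**Figure D3:**
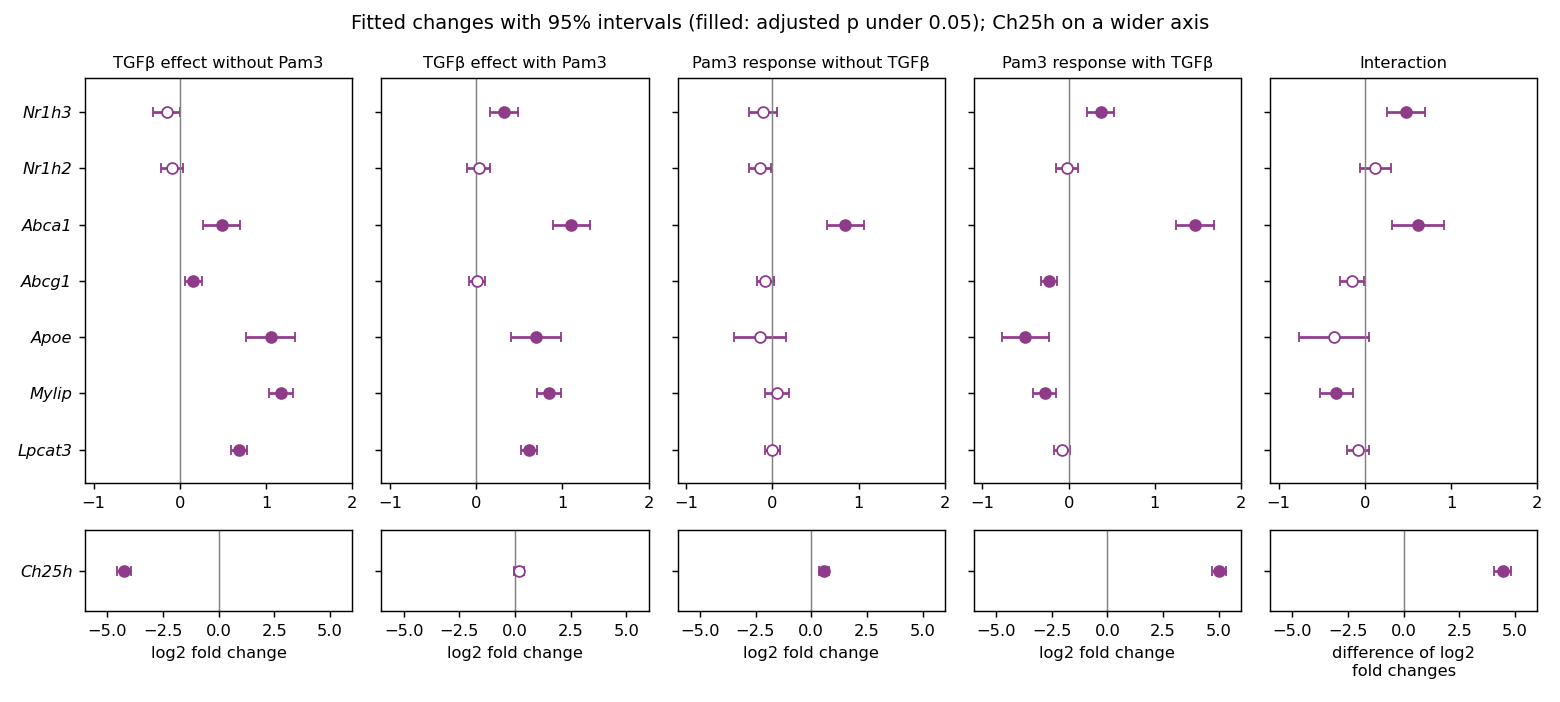
Log2 fold changes (x axes) of the 8 genes in the 5 contrasts with 95% intervals from the edgeR fit of 12 libraries; filled points passed an adjusted p of 0.05, and Ch25h has a wider axis. Mylip, Apoe, Lpcat3 and Abca1 lie above 0 in both TGFβ contrasts, and Ch25h goes from -4.27 without Pam3 to 0.18 with it.

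A list of 68 other genes of the pathway was read in the same way, of which 56 were tested. With TGFβ alone 21 of the 56 rose and 22 fell, against shares over all genes of 22.9% higher and 28.1% lower. With Pam3 present 23 rose and 18 fell, against 21.5% and 23.8% over all genes. The medians of the list were 0.02 and 0.08. Pam3 raised 8 and lowered 12 without TGFβ (median -0.02), against 9.62% and 8.66% over all genes, and raised 15 and lowered 19 with it (median -0.10), against 20.4% and 18.1%. Without the 3 libraries that stood apart, Pam3 without TGFβ gave 11 calls in place of 20. Over all genes that fit called 1078 higher and 943 lower of 14983, against 1419 and 1278 of 14749 with all libraries. The interaction was higher for 11 and lower for 10, against 10.3% and 5.67%. No list or subgroup was tested against these shares.

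Among oxysterol enzymes, 5 of 8 were tested. Cyp27a1, the mitochondrial sterol 27-hydroxylase that makes another LXR ligand, averaged 7.91 ± 0.13 CPM (SD, n = 3) in untreated and 0.669 ± 0.350 CPM in TGFβ libraries, which held 13 to 39 counts. It fell with TGFβ by the test (-3.57, SE 0.27, adjusted p = 3.45e-11). It also fell with Pam3 without TGFβ, to 3.60 ± 0.20 CPM (-1.14, SE 0.23, adjusted p = 0.000677). In the presence of TGFβ the Pam3 response was -1.07 (adjusted p = 0.0223), and the interaction was 0.07 (adjusted p = 0.953). The call with TGFβ was lost without TGFβ replicate 3 (-0.63, adjusted p = 0.226), Pam3+TGFβ replicate 1 (-0.98, adjusted p = 0.0729) or Pam3+TGFβ replicate 2 (-0.82, adjusted p = 0.102), and in a fit of the compared groups alone (-1.08, adjusted p = 0.106). Hsd3b7, of bile acid synthesis, fell with Pam3 both without TGFβ (-0.49, adjusted p = 5.94e-06) and with it (-0.46, adjusted p = 3.70e-06).

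Of the receptor partners and coregulators, 12 of 13 were tested, and with TGFβ alone 7 rose and 1 fell (22.9% and 28.1% over all genes). Nrip1, a nuclear receptor coregulator, rose from 53.3 ± 9.4 to 136 ± 4.4 CPM (1.35, adjusted p = 7.18e-10). Rxra, the main RXR partner in macrophages, averaged 251 CPM in untreated, 266 CPM in TGFβ, 206 CPM in Pam3 and 159 CPM in Pam3+TGFβ libraries. Pam3 lowered it in the presence of TGFβ (-0.74, SE 0.045, adjusted p = 6.48e-13) and without TGFβ (-0.29, adjusted p = 3.62e-05). Rxrb averaged 43.9, 61.0, 38.8 and 39.3 CPM in the same order, rose with TGFβ alone (0.48, adjusted p = 3.71e-07) and fell with Pam3 in its presence (-0.63, adjusted p = 4.98e-09). Without TGFβ the Pam3 response of Rxrb was -0.18 (adjusted p = 0.0453), a call lost without untreated replicate 1 or 2, without any 1 of the Pam3, TGFβ or Pam3+TGFβ replicates, and without the 3 libraries that stood apart. In the Pam3+TGFβ libraries, where Abca1 and Nr1h3 had their highest means, Rxra thus had its lowest.

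Of 17 genes listed as further LXR targets 12 were tested, and TGFβ alone raised 5 and lowered 5 (22.9% and 28.1% over all genes). Whether each of them answers to LXR in these cells was not tested. Apoc1, an apolipoprotein gene beside Apoe, rose from 0.127 ± 0.078 to 1.99 ± 0.39 CPM (3.91, adjusted p = 3.98e-08), on 3 to 9 counts in untreated libraries. Abca9, a transporter gene of the same family as Abca1, fell from 2.50 ± 0.15 to 0.336 ± 0.085 CPM (-2.88, adjusted p = 3.15e-06). The other genes raised by TGFβ alone were Srebf1 (1.13), Scd1 (1.68), Scd2 (0.94) and Fasn (0.95). The other lowered ones were Pltp (-0.30), Lpl (-0.82), Arl4c (-2.24) and Smpdl3a (-0.47). Il1rn, which encodes the interleukin-1 receptor antagonist, averaged 467 CPM in untreated, 515 CPM in TGFβ, 795 CPM in Pam3 and 1611 CPM in Pam3+TGFβ libraries, and Pam3 raised it by 1.65 (adjusted p = 6.82e-15) with TGFβ and by 0.77 (adjusted p = 2.33e-08) without. Pltp, the phospholipid transfer protein, fell with Pam3 in the presence of TGFβ (-0.55, adjusted p = 1.11e-05), and the value without TGFβ was -0.21 (adjusted p = 0.0905). Of the 12 tested genes of this list, Pam3 in the presence of TGFβ raised 2 and lowered 6 (20.4% and 18.1% over all genes).

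In the group for cholesterol uptake, storage and trafficking, 20 of 22 genes were tested, and with TGFβ alone 4 rose and 11 fell (22.9% and 28.1% over all genes). The scavenger receptors Cd36 and Msr1, which take up modified lipoproteins, fell, with log2 values of -3.15 (adjusted p = 9.56e-20) and -1.39 (adjusted p = 8.64e-17). Cd36 went from 456 ± 14 to 51.2 ± 4.1 CPM. In the presence of TGFβ, Pam3 raised 10 and lowered 5 (20.4% and 18.1% over all genes). Msr1 rose by 1.09 (adjusted p = 1.79e-14) with TGFβ and by 0.40 (adjusted p = 4.80e-06) without it. Stard5, a cytosolic sterol carrier, rose by 1.07 (adjusted p = 2.19e-13) and by 0.24 (adjusted p = 0.00745), the latter lost without untreated replicate 1 or the 3 libraries that stood apart. Of 8 lysophospholipid acyltransferases other than Lpcat3, 7 were tested. With TGFβ alone 4 rose, among them Lpcat4 (1.00, adjusted p = 5.94e-09), and 3 fell, among them Mboat1 (-1.61, adjusted p = 0.000285), against 22.9% and 28.1% over all genes. With Pam3 in the presence of TGFβ, 2 of the 7 rose and 1 fell, against 20.4% and 18.1% over all genes. The gene that fell was Lpcat1 (-0.39, adjusted p = 1.28e-06). Lpcat2, known as an inflammatory member of the family, rose by 1.90 (adjusted p = 2.14e-08) and Agpat2 by 0.57 (adjusted p = 2.67e-06). Without TGFβ both rose as well, by 0.94 (adjusted p = 5.54e-05) and 0.28 (adjusted p = 0.0186), the Agpat2 call being lost without untreated replicate 1 or 3, Pam3 replicate 2 or 3, or the 3 libraries that stood apart.

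**Figure D4:**
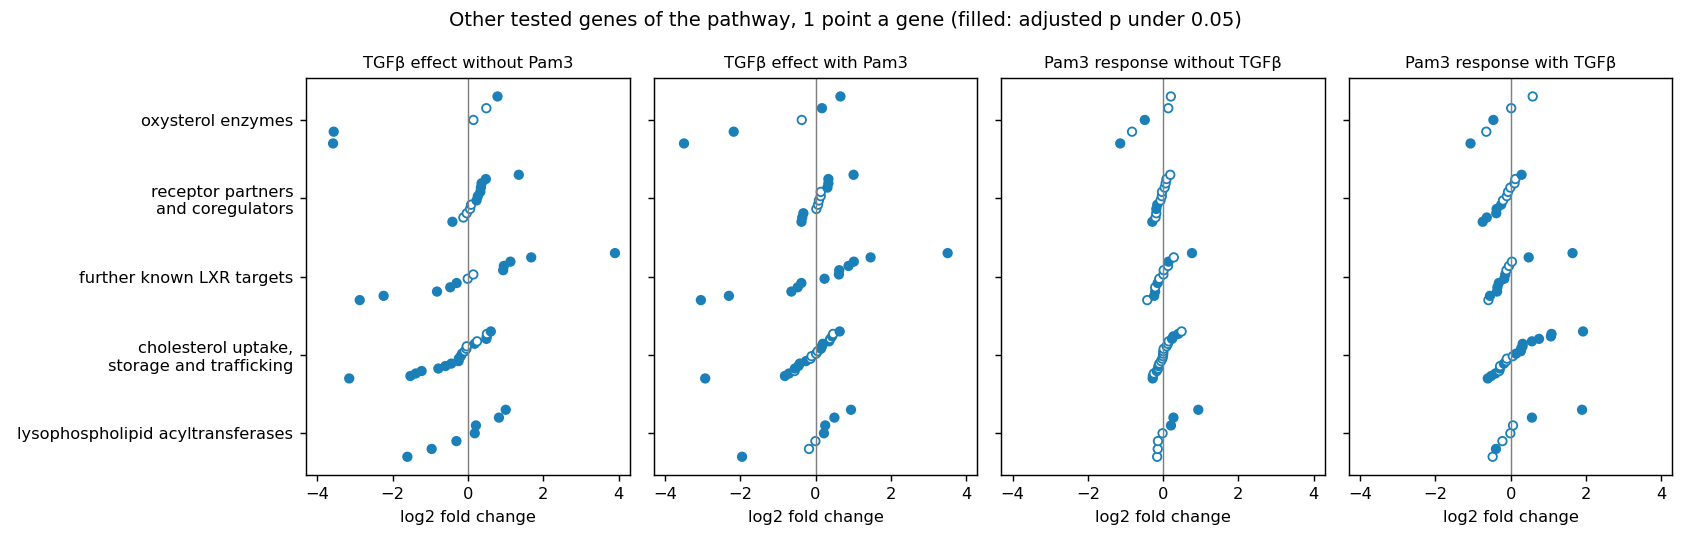
Log2 fold changes (x axes) of the 56 tested pathway genes in 4 contrasts, 1 point a gene, by subgroup (rows, sorted by value within a row); filled points passed an adjusted p of 0.05. Most points of the Pam3 response without TGFβ lie near 0 and are open, and the uptake, storage and trafficking row is mainly below 0 with TGFβ alone.

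Genes with the most similar pattern were found for each of the 8 by the root mean square difference of centred log2 CPM over the 12 libraries, among 11893 genes. Closest to Abca1 were Sdc4 (0.140) and Mitd1 (0.149), against a spread of 0.724 for Abca1 itself. Sdc4, a cell surface proteoglycan, averaged 25.7 CPM in untreated, 31.7 CPM in TGFβ, 42.0 CPM in Pam3 and 89.6 CPM in Pam3+TGFβ libraries. Closest to Ch25h were Adora2a (0.367), an adenosine receptor gene, and Traf1 (0.420), a signalling adaptor gene, both at most 3.69 CPM in any library and at 0 and 0.0688 CPM on average with TGFβ alone. Mylip was closest to Pbxip1 (0.0928) and Acsl3 (0.0929), Apoe to Casp2 (0.0865) and Matn2 (0.113), and Lpcat3 to Fkbp4 (0.0499) and B3gnt7 (0.0566). The nearest genes to Nr1h3 were Emd (0.0714) and Shisa5 (0.0749), to Nr1h2 Ncln (0.0420) and Spindoc (0.0484), and to Abcg1 Mtmr3 (0.0334) and Tspan14 (0.0366). For the last 3 genes the spread of the gene itself was only 0.168, 0.0849 and 0.0967.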

How the data were processed

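Poly(A) RNA of 12 FLAM libraries was sequenced. Per the submitters' processing notes and the labels' protocols, the authors used bcl2fastq 2.20.0, FastQC 0.11.7, Bowtie2 2.4.1 against GRCm39, featureCounts of Subread 2.0.0 and DESeq2 1.36.0 (R 4.2.1). Not given in the sources used here are the gene annotation, whether counting used strand, and how reads with several alignments were handled. The deposited counts are whole reads per gene symbol. The authors' normalized values, a signal equal to the count divided by 1 constant per library, entered only a limma-trend alternative (log2 of the value plus 1).

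From the counts, edgeR 4.0.16 in R 4.3.3 (filterByExpr with a minimum count of 10, TMM, robust glmQLFit and glmQLFTest) modelled the 12 libraries by the means of their 4 groups. The 5 contrasts were the TGFβ effect without and with Pam3, the Pam3 response without and with TGFβ, and the interaction (the second Pam3 response minus the first). P-values were adjusted over 14749 genes, 17090 of 40847 rows having no count. SE is the log2 fold change's size over the square root of F. Positions come from GENCODE M39 on GRCm39 (32481 symbols matched), exon length is the union of exons, and promoter windows are the 250 bases before the canonical start, read from the genome.

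The genes and lists were chosen with earlier results of these data known. The rule named all 8 genes, per pathway subgroup the 2 called genes that moved most in each of 3 contrasts, where there were as many, (TGFβ without Pam3, Pam3 with TGFβ, interaction) at a mean of at least 1 CPM, and the 2 genes of most similar pattern. 1 gene that the rule named is not reported here. The procedure was tested on simulated data. Alternatives were other scalings, DESeq2 1.42.0, limma-trend (limma 3.58.1), other filters, a replicate block, the compared groups alone and leaving out libraries. Leaving out 3 libraries together was chosen after seeing the data.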

Additional observations from a re-analysis of the deposited data

Results flagged for a closer look

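In 4 of the 8 genes TGFβ changed the size of the Pam3 response by the interaction test of edgeR (adjusted over all tested genes): Ch25h by 4.45 (adjusted p = 4.50e-13), Abca1 by 0.62 (0.00936), Nr1h3 by 0.48 (0.00250) and Mylip by -0.33 (0.0152), on the log2 scale with 3 libraries a group. Over all tested genes 10.3% were called higher and 5.67% lower by this test. The calls of Abca1 and Mylip were lost without the 3 libraries that stood apart (adjusted p = 0.0842 and 0.137).

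Of the pathway genes named by the rule, the same test found a higher response with TGFβ for Lpcat2 (0.96, adjusted p = 0.000989), Il1rn (0.88, adjusted p = 5.96e-07), Stard5 (0.83, adjusted p = 7.86e-08), Msr1 (0.68, adjusted p = 3.09e-07) and Lpl, lipoprotein lipase (0.35, adjusted p = 0.00956). The interaction was below 0 for Lpcat1 (-0.60, adjusted p = 1.41e-06), Rxra (-0.46, adjusted p = 7.81e-06) and Rxrb (-0.45, adjusted p = 0.000465). For Rxra and Rxrb the fall with Pam3 was larger with TGFβ (-0.74 and -0.63) than without it (-0.29 and -0.18). The Pam3 response of Lpcat1 was 0.21 without TGFβ (adjusted p = 0.00609) and -0.39 with it (adjusted p = 1.28e-06).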

How the results depend on the processing

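Of 832 values of the 8 genes under alternatives, 822 stayed on the same side of the threshold, 5 lost a call, 5 gained one, and 0 called values changed sign, although some uncalled values near 0 did. Counts of called genes, both directions together, were within 1.5 times of the reported ones, with these exceptions. Limma-trend called 1 gene in place of 2 for Pam3 without TGFβ. Without the 3 libraries that stood apart, the interaction was called for 2 genes in place of 4, and Pam3 without TGFβ for 11 pathway genes in place of 20. Over all genes that fit also made fewer calls of Pam3 without TGFβ, 1078 higher and 943 lower in place of 1419 and 1278. Its interaction calls over all genes were 1196 higher and 693 lower in place of 1516 and 836. The cause was not tested, and that fit also has fewer samples. Leaving out all 3 can also leave the groups unlike, since untreated replicate 3 deviated oppositely to TGFβ replicate 2 and Pam3 replicate 1. By direction, TGFβ alone lowered 2 genes in place of 1 without untreated replicate 1 (Nr1h3 added), Pam3 without TGFβ lowered 1 in place of 0 without untreated replicate 3 (Nr1h2), DESeq2 gave 2 lower interactions in place of 1 (Abcg1 added), and the interaction of Mylip, the 1 called lower, was lost without untreated replicate 3. Not every pair with the same replicate number correlated over 0.1, so the numbers were not taken as pairing the libraries: over 18 such pairs, deviations correlated at -0.25 to 0.48 (median 0.15, 9 over 0.1), against a median of -0.12 over 36 pairs with different numbers (12 over 0.1). Not every library correlated best with its own number. A replicate block called 6, 5, 2, 6 and 4 of the 8 genes in the order TGFβ without and with Pam3, Pam3 without and with TGFβ, and interaction, the same numbers as without it. Depth limits Apoe (109 counts at the lowest) and Ch25h with TGFβ alone (29 counts at the lowest).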
